A study of Mus musculus with 16 samples.

Results

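The cytosolic ribosomal protein genes encode the protein subunits of the ribosome, and their transcripts are among the most abundant in most cells. Members were taken from the single-symbol probe sets of the array as genes whose symbol starts with Rpl or Rps and a digit, together with Rpsa, Rplp0, Rplp1 and Rplp2, without the Rps6k kinases and pseudogene symbols, and with the brightest probe set standing for each gene. The rule gave 50 of the 18194 genes measured, from 106 of 45101 probe sets. By name they were 20 large subunit proteins, 21 small subunit proteins, the stalk proteins Rplp0 and Rplp2, and 6 paralogs of ribosomal proteins (Rpl3l, Rpl7l1, Rpl22l1, Rpl39l, Rps4l and Rps27l). The remaining member, Rps19bp1, carries a matching symbol but encodes a nucleolar protein that binds Rps19 and is not a subunit. A further 31 ribosomal protein symbols, Rpl3, Rpl5, Rpl10, Rplp1 and Rps12 among them, occurred only on probe sets that name several genes, and were left out by the rule.

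RNA came from peritoneal lavage of female C57BL/6N mice that had carried ID8-luciferase ovarian cancer cells in the peritoneal cavity for 4 weeks. All mice had received tamoxifen by gavage (1 mg, at 8 to 12 weeks of age) 3 weeks before the tumour cells, and in RbpjiΔEC mice this removed Rbpj, the transcription factor that Notch receptors act through, from endothelial cells. The sorted cells are not the cells in which the deletion is made, so Rbpj in them is no check of it. The driver of the recombination and the alleles the control mice carried are not given in the sources used here. Macrophages of the tumour-bearing cavity were gated on CD45, CD11b and F4/80 and then split on CCR2, the receptor through which monocytes are recruited, which gave 4 groups of 4 Affymetrix arrays: CCR2+ Control, CCR2+ RbpjiΔEC, CCR2- Control and CCR2- RbpjiΔEC. Whether the 4 arrays of a group came from separate mice is not stated, so the spread that the p-values rest on may be technical only.

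Several genes did not read as the gate would have them, so CCR2+ and CCR2- are used here for the label of an array and not for its cells. Adgre1, which encodes F4/80, read 13.05 to 13.41 log2 units under the CCR2+ label but only 8.88 to 9.48 under the other, whereas the B cell gene Ms4a1 read 6.52 to 7.66 and 13.52 to 13.62. Of the B cell markers 19 of 19 were called lower in the CCR2+ arrays of both genotypes, with summed linear intensities of 8304 to 10638 against 100219 to 110141, and of the macrophage markers 22 of 23 were called higher, with sums of 171129 to 187128 against 14617 to 27638. Ccr2 itself read 7.58 to 11.51 under the CCR2- label and 6.87 to 9.27 under the CCR2+ label. Rbpj read 11.17 to 11.77 under the CCR2+ label and 10.03 to 10.72 under the CCR2- label, and overlapped between genotypes within each label. In sorted bulk RNA fewer cells of a type and less RNA per cell cannot be told apart, and the part of this difference in cell markers in any result between labels was not tested. The deposited columns also differed in kind: mean intensity was 821 to 827 in every CCR2+ array but 481 to 762 in the CCR2- arrays, so that the sort label and the form of the deposited values cannot be told apart.

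Ribosomal proteins assemble with ribosomal RNA in the nucleolus into a small subunit, which decodes the messenger RNA, and a large subunit, which forms peptide bonds. Their genes are transcribed in parallel, and most of the messengers start with a run of pyrimidines, the terminal oligopyrimidine (TOP) tract, through which mTOR signalling controls their translation. Immune cells raise ribosome production when they are activated or divide, with Myc as a main driver. Several ribosomal proteins also act outside the ribosome, for example on the p53 regulator Mdm2.

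RefSeq promoter windows (GRCm38.p6, 250 bases before to 50 after the annotated start) matched 44 of the 50 members. Within 20 bases of the start, 19 of the 44 windows (43.2%) held a run of at least 8 pyrimidines, against 15.7% of the 14453 matched genes on the array and 15.9% of all 27025 genes with a window. The sequence CCGGAAGT, a core bound by Ets factors such as GABP, was present on either strand in 10 of 44 windows (22.7%), against 6.12% of the genes on the array and 3.99% of all genes with a window. AAGATGGC, a core of the YY1 motif, was present on either strand in 4 windows (9.09%) against 3.67% and 2.87%. Only the outermost annotated start of each gene was read, so a match describes this window and no match says nothing of the true start.

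The start regions are shown for the members that passed, with 1 direction, in both genotypes, and run from 40 bases before to 20 after the annotated start, 5′ to 3′ on the gene's strand, with the longest pyrimidine run of each stretch in capitals (of equally long runs, the one nearest the start), to show where it lies relative to the start at which a TOP tract would be. Rps26 lies on the minus strand at chr10:128626487-128626546, and the others on the plus strand: Rpl10a at chr17:28328431-28328490, Rpl12 at chr2:32961672-32961731, Rpl27a at chr7:109519155-109519214, Rps19 at chr7:24884552-24884611, Rps24 at chr14:24490638-24490697, Rps9 at chr7:3704001-3704060, Rpl39l at chr16:10170188-10170247 and Rps27l at chr9:66946046-66946105. Rps20 was among the 6 members that matched no window, so its start region is not shown.
Rpl10a: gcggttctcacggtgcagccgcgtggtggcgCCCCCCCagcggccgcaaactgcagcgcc
Rpl12: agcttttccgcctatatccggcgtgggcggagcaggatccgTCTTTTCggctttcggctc
Rpl27a: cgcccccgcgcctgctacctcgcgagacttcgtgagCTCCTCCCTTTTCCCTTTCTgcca
Rps19: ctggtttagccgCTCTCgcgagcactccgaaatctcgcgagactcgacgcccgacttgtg
Rps24: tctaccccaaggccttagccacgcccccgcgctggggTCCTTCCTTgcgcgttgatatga
Rps26: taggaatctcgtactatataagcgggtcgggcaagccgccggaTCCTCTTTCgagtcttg
Rps9: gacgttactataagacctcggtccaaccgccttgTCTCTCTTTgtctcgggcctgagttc
Rpl39l: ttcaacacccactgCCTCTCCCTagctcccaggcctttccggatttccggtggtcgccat
Rps27l: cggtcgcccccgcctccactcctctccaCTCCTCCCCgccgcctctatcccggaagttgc
The longest run spanned 20 bases in Rpl27a, 9 in Rps24, Rps26, Rps9, Rpl39l and Rps27l, 7 in Rpl10a and Rpl12, and 5 in Rps19. In Rpl27a, Rps24 and Rps9 the run crossed the annotated start, and it began at base 4 of the transcript in Rps26 and at base 2 in Rpl12. An equally long run lay farther upstream in Rpl12 and in Rps27l. In Rpl39l and Rps27l, the genes called higher, and in Rpl10a and Rps19, called lower, the run lay wholly before the annotated start.

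Most members were among the brightest genes on the arrays. Levels are given as log2 quantile-normalised intensity, which ranks one probe set's arrays but not one gene against another in molecules. The median member level over the 16 arrays was 12.77, against 8.25 for all genes, and 27 of the 50 were at or above the 99th percentile of all genes. Rps7, a small subunit protein that also binds Mdm2, was the brightest member, with group means of 13.88 ± 0.02 (SD, n = 4) in CCR2+ Control, 13.81 ± 0.12 in CCR2+ RbpjiΔEC, 13.71 ± 0.13 in CCR2- Control and 13.68 ± 0.03 in CCR2- RbpjiΔEC. Rps3a1, Rpl6 and Rpl27a followed. At the low end Rpl37, a large subunit protein, averaged 6.11 and Rps16, a small subunit protein, 6.52, at the level of a bacterial trp control that mouse RNA should not bind (6.35 to 6.51), or below it, so these 2 probe sets say nothing of their genes' level. The other members with a mean of 8 or under were Rps27 and the paralogs Rpl3l, Rpl39l and Rps4l.

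**Figure D1:**
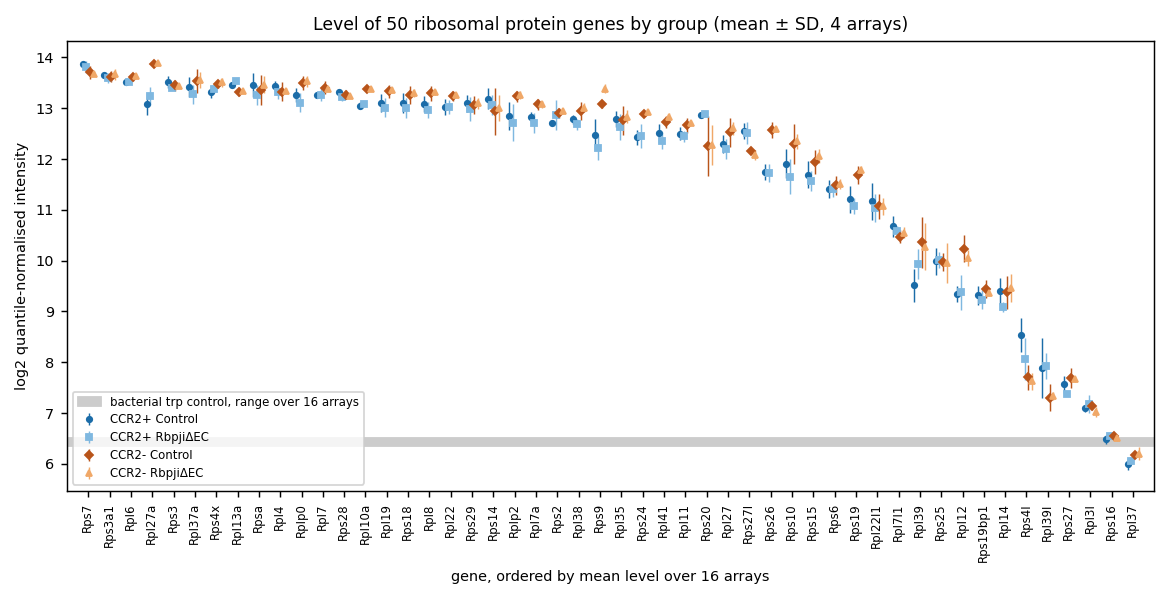
Level of each of the 50 members in the 4 groups, as mean ± SD over 4 arrays in log2 quantile-normalised intensity, ordered by mean level. Most members lie near the top of the scale with groups close together, Rps16 lies near the grey band of the bacterial trp control (6.35 to 6.51), and Rpl37 lies below it.

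Spread between arrays of a group was close to that of other genes in 3 groups and smaller in CCR2- RbpjiΔEC. The median SD over members was 0.16 in CCR2+ Control, 0.17 in CCR2+ RbpjiΔEC, 0.15 in CCR2- Control and 0.09 in CCR2- RbpjiΔEC, against 0.16, 0.16, 0.17 and 0.15 over all genes. Members tended to be low together in the same arrays. CCR2- Control replicate 1 was the lowest of its group for 37 of 50 members, CCR2+ RbpjiΔEC replicate 1 for 33, CCR2+ Control replicate 3 for 32 and CCR2- RbpjiΔEC replicate 1 for 27, where the same arrays were lowest for 29.2%, 30.3%, 27.8% and 30.4% of all genes. The median over members was 12.36 in CCR2+ RbpjiΔEC replicate 1 against 12.65 to 12.82 in the other arrays of that group, and 12.63 in CCR2- Control replicate 1 against 12.92 to 12.98. The array's 18S ribosomal RNA control moved in part alike: it read 11.84 in CCR2- Control replicate 1 against 12.56 to 12.96 in the rest of the group, and 12.42 in CCR2+ RbpjiΔEC replicate 1 against 12.46 to 13.24. Its part in the member values was not tested.

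Between the labels, more of the called members read lower than higher with the CCR2+ label in both genotypes under quantile normalisation, whereas with the values as deposited more read higher in both. In control mice 12 of 50 members passed an adjusted p of 0.05 (limma, Benjamini-Hochberg over all 18194 genes), or 24%, against 40.8% of all genes. Of these, 8 read lower and 4 higher with the CCR2+ label (21.4% and 19.4% of all genes did), 32 of 50 estimates were negative (54.5% of all genes), and the median member difference was -0.13 log2 units beside -0.03 over all genes. In RbpjiΔEC mice 24 of 50 passed, or 48% against 39.1% of all genes, with 4 higher and 20 lower (18.1% and 21% of all genes), 39 of 50 estimates negative (54% of all genes) and a median of -0.20 beside -0.03. The groups did not overlap for 12 of 50 members in control mice, where 37.4% of all genes were apart, and for 26 of 50 in RbpjiΔEC mice, where 38.2% were. In both genotypes 7 members were called lower (Rpl10a, Rpl12, Rpl27a, Rps9, Rps19, Rps24 and Rps26) and 3 higher (Rpl39l, Rps20 and Rps27l). How many of all genes were called alike in both genotypes was not counted, so these counts have no background beside them. In no case was a member called in opposite directions, and 24 were called in neither genotype. The 13 called lower in RbpjiΔEC mice alone are not shown to differ between genotypes, since the interaction called 0 of 50.

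**Figure D2:**
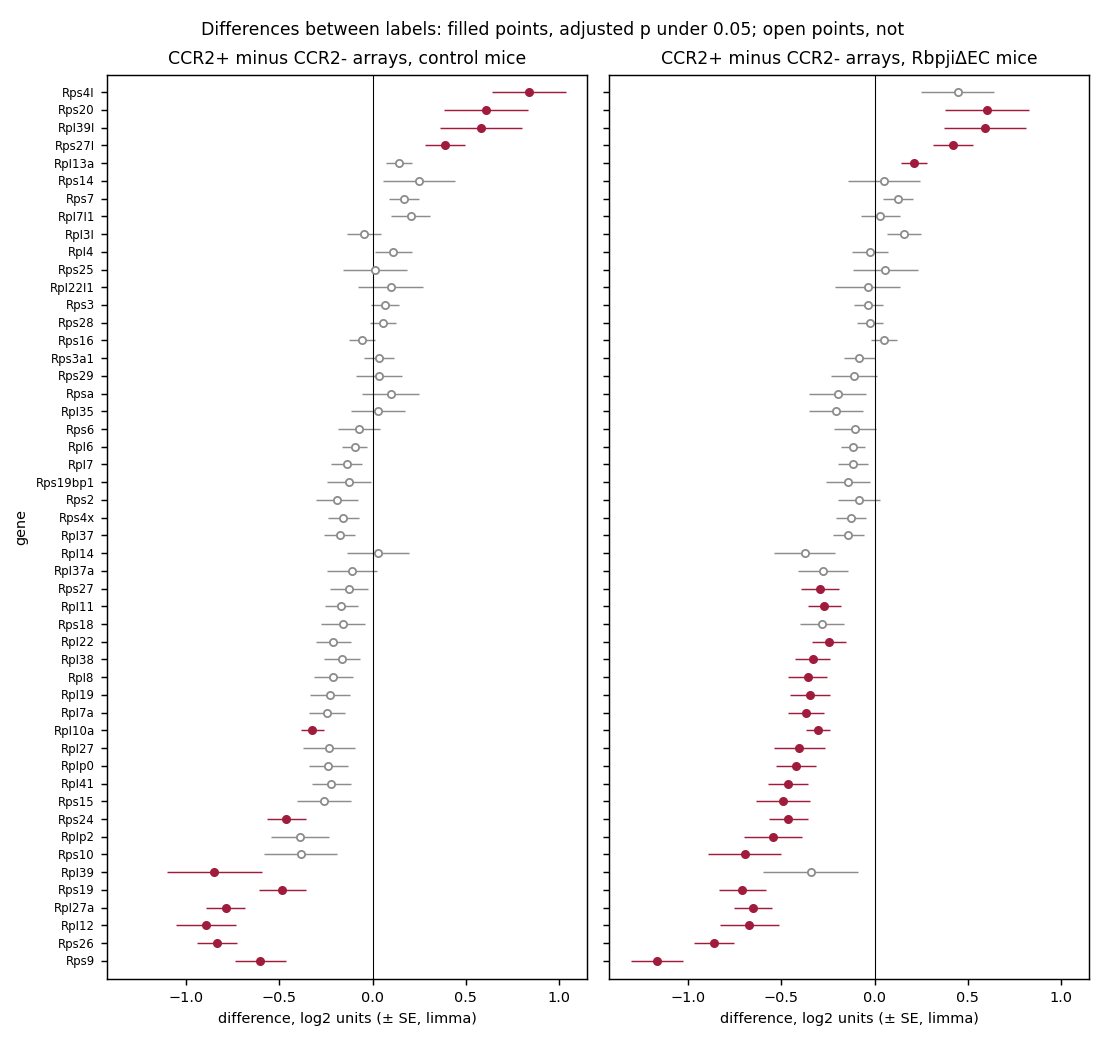
Difference between CCR2+ and CCR2- arrays for each of the 50 members in control mice (left) and RbpjiΔEC mice (right), in log2 units with the limma standard error; filled points passed an adjusted p of 0.05. Filled points lie mostly left of 0, 8 of 12 in control mice and 20 of 24 in RbpjiΔEC mice, under quantile normalisation. With the values as deposited 17 and 12 members were called higher and 1 lower in each. Of all genes 25.2% and 31.3% were then called higher.

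The direction of the family as a whole rested on how the arrays were scaled to each other. Under quantile normalisation the median member minus the median of all genes was -0.10 log2 units in control mice and -0.17 in RbpjiΔEC mice. When each array was only shifted by a constant (to its median, to its 75th percentile, or not at all), the median member lay above that of all genes, by 0.33 and 0.07. Counts of calls did not all move the same way. Centring on the array median gave 8 members higher and 4 lower in control mice and 2 higher and 6 lower in RbpjiΔEC mice. Of all genes 22.2% were higher and 20.2% lower in control mice, and 18.5% and 19.4% in RbpjiΔEC mice. The values as deposited gave 17 higher and 1 lower, and 12 higher and 1 lower, or 34% and 24% higher. Of all genes 25.2% and 31.3% were then called higher, and 9.51% and 6.58% lower. These scalings moved the median of all genes to -0.11 and -0.10 under median centring, to -0.41 and -0.31 under 75th percentile centring, and to 0.03 and 0.23 as deposited. Under 75th percentile centring 3 members were higher and 10 lower in control mice (6% and 20%), and 2 and 17 in RbpjiΔEC mice (4% and 34%). Of all genes 15.2% were higher and 46.1% lower in control mice, and 14.2% and 32.7% in RbpjiΔEC mice. Under 5 scalings, a centring on the members themselves included, Rpl12 was called lower and Rps4l, Rps20 and Rps27l higher in control mice each time. In RbpjiΔEC mice Rps9 was called lower and Rps20 and Rps27l higher each time. Outside the scalings the Rps20 calls were often lost and the mean of all probe sets lost the Rps9 call, as given with their values. The sign was the same under all 5 for 22 members in control mice and 14 in RbpjiΔEC mice. Directions below are those of quantile normalisation.

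**Figure D3:**
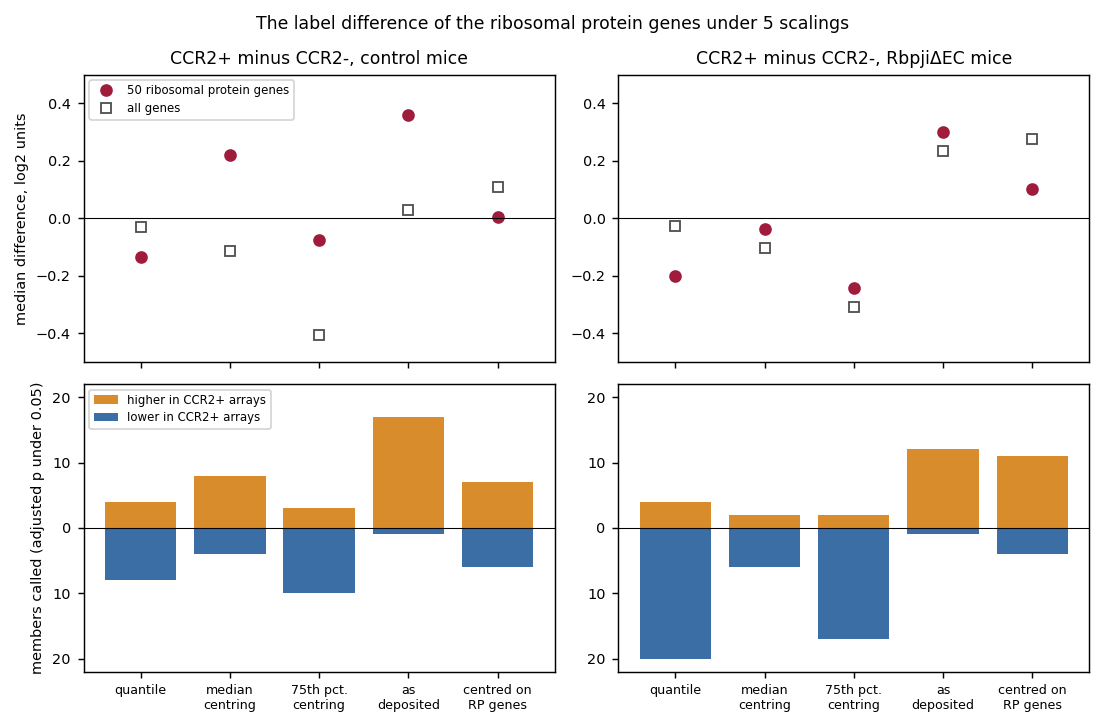
Median label difference in log2 units (top; filled, 50 members; open, all 18194 genes) and number of members called higher or lower in CCR2+ arrays (bottom) under 5 scalings of the arrays, for control mice (left) and RbpjiΔEC mice (right). The members' median lies below that of all genes under quantile normalisation and above it under median and 75th percentile centring and as deposited.

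Among the large subunit proteins 4 of 20 were called in control mice, all lower in the CCR2+ arrays, and 12 of 20 in RbpjiΔEC mice, 11 of them lower, or 20% and 60% where 40.8% and 39.1% of all genes were called. Rpl27a, a large subunit core protein, was lower in the CCR2+ arrays. In control mice Rpl27a read 12.98, 13.37, 12.87 and 13.09 in the CCR2+ arrays and 13.85, 13.83, 13.92 and 13.87 in the CCR2- arrays. Rpl27a read 13.21, 13.01, 13.41 and 13.35 in the CCR2+ and 13.92, 13.89, 13.89 and 13.87 in the CCR2- arrays of RbpjiΔEC mice. Every CCR2+ array lay below every CCR2- array, and the CCR2- values lay close together. The difference was -0.79 ± 0.104 (SE) in control mice and -0.65 ± 0.104 in RbpjiΔEC mice, with limma adjusted p of 1.04e-05 and 8.24e-05. As deposited the Rpl27a difference was -0.39 in control mice and -0.27 in RbpjiΔEC mice, neither called (limma adjusted p = 0.0585 and 0.189). A dim second probe set of Rpl27a gave -0.06 and 0.11.

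Rpl12, a protein at the base of the stalk that recruits elongation factors, showed a difference of similar size at a lower level. In control mice Rpl12 read 9.34, 9.29, 9.18 and 9.56 in the CCR2+ arrays and 10.47, 10.33, 9.85 and 10.29 in the CCR2- arrays. Rpl12 read 9.74, 9.06, 9.12 and 9.58 in the CCR2+ and 10.20, 9.84, 10.02 and 10.13 in the CCR2- arrays of RbpjiΔEC mice. The groups did not overlap in either genotype, although the CCR2+ arrays of RbpjiΔEC mice were spread over a wide range. The difference was -0.89 ± 0.16 (SE) in control mice and -0.67 ± 0.16 in RbpjiΔEC mice, with limma adjusted p of 0.000234 and 0.0028. Rpl10a, which forms the stalk on the opposite side of the large subunit, separated by less but with little spread. In control mice Rpl10a read 13.03, 13.10, 12.97 and 13.10 in the CCR2+ arrays and 13.36, 13.37, 13.36 and 13.41 in the CCR2- arrays. Rpl10a read 13.07, 13.08, 13.09 and 13.07 in the CCR2+ and 13.40, 13.37, 13.34 and 13.41 in the CCR2- arrays of RbpjiΔEC mice. All CCR2+ values were below all CCR2- values. The difference was -0.32 ± 0.0625 (SE) in control mice and -0.30 ± 0.0625 in RbpjiΔEC mice, with limma adjusted p of 0.000484 and 0.000871; it was 0.07 in control mice under median centring and 0.21 as deposited, so its direction rests on the scaling.

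Rpl39, a small protein that lines the exit tunnel for the new peptide, was called in control mice alone. In control mice Rpl39 read 9.10, 9.84, 9.44 and 9.68 in the CCR2+ arrays and 10.71, 9.81, 10.86 and 10.08 in the CCR2- arrays. The groups overlapped at 1 CCR2- array, replicate 2. The difference was -0.85 ± 0.255 in control mice with a limma adjusted p of 0.0132, and -0.34 ± 0.255 in RbpjiΔEC mice with an adjusted p of 0.323. Without CCR2- Control replicate 3 the control difference was -0.68 with a limma adjusted p of 0.0523. Rpl11, which with Rpl5 and 5S ribosomal RNA can bind Mdm2, was called lower in RbpjiΔEC mice (-0.27 ± 0.0889, limma adjusted p = 0.0231) and gave -0.17 ± 0.0889 in control mice (adjusted p = 0.15). Rpl38, known for its role in translating Hox messengers, gave -0.33 and -0.16 (limma adjusted p = 0.0102 and 0.192). Rpl13a, which can leave the ribosome to silence inflammatory messengers in myeloid cells, was the 1 large subunit protein called higher, at 0.21 ± 0.069 in RbpjiΔEC mice (limma adjusted p = 0.0229). Its 3 other probe sets gave -0.20, -0.66 and -0.39 there. The RbpjiΔEC call was lost for Rpl11 without CCR2+ replicate 1 (limma adjusted p = 0.0762) and for Rpl13a without CCR2+ replicate 3 or 4 or CCR2- replicate 2 (adjusted p = 0.0555 to 0.0654). The calls held in 13 of 19 alternatives for Rpl11 and in 12 of 19 for Rpl13a.

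The stalk proteins Rplp0 and Rplp2 were both called lower in the CCR2+ arrays of RbpjiΔEC mice. Rplp0 differed by -0.42 ± 0.106 (limma adjusted p = 0.00446) and Rplp2 by -0.54 ± 0.155 (adjusted p = 0.01). In control mice the values were -0.24 ± 0.106 and -0.39 ± 0.155, with limma adjusted p of 0.0897 and 0.0566. As deposited the RbpjiΔEC differences were 0.09 and 0.03.

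Of the 21 small subunit proteins 5 were called in control mice, 4 lower and 1 higher, and 8 in RbpjiΔEC mice, 7 lower and 1 higher, or 23.8% and 38.1% beside the same 40.8% and 39.1%. Rps26, which sits where the messenger leaves the ribosome and is mutated in Diamond-Blackfan anaemia, had the smallest p of any member in control mice. In control mice Rps26 read 11.77, 11.77, 11.53 and 11.90 in the CCR2+ arrays and 12.52, 12.41, 12.59 and 12.78 in the CCR2- arrays. Rps26 read 11.59, 11.97, 11.69 and 11.65 in the CCR2+ and 12.63, 12.54, 12.53 and 12.65 in the CCR2- arrays of RbpjiΔEC mice. The labels were far apart relative to the spread within them. The difference was -0.83 ± 0.105 (SE) in control mice and -0.86 ± 0.105 in RbpjiΔEC mice, with limma adjusted p of 6.09e-06 and 4.39e-06. It kept its sign but shrank to -0.23 and -0.21 with the values as deposited, where the limma adjusted p was 0.382 and 0.4.

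Rps24 and Rps19, also Diamond-Blackfan anaemia genes, were lower too. In control mice Rps24 read 12.24, 12.51, 12.40 and 12.58 in the CCR2+ arrays and 12.84, 12.93, 12.93 and 12.87 in the CCR2- arrays. Rps24 read 12.11, 12.59, 12.59 and 12.54 in the CCR2+ and 12.94, 12.90, 12.90 and 12.93 in the CCR2- arrays of RbpjiΔEC mice. No CCR2+ value reached a CCR2- value. The Rps24 difference was -0.46 ± 0.104 (SE) in control mice and -0.46 ± 0.104 in RbpjiΔEC mice, with limma adjusted p of 0.0017 and 0.00176. Of its 5 other probe sets the 3 bright ones also read lower, by -0.33 to -0.59 in control mice, and the 2 dim ones gave 0.28 and 0.05. In control mice Rps19 read 11.17, 11.23, 10.90 and 11.53 in the CCR2+ arrays and 11.52, 11.65, 11.64 and 11.95 in the CCR2- arrays. Rps19 read 10.86, 11.20, 11.16 and 11.09 in the CCR2+ and 11.82, 11.70, 11.86 and 11.76 in the CCR2- arrays of RbpjiΔEC mice. The Rps19 groups met at 1 array in control mice, CCR2+ replicate 4, and were apart in RbpjiΔEC mice. The difference was -0.48 ± 0.125 (SE) in control mice and -0.71 ± 0.125 in RbpjiΔEC mice, with limma adjusted p of 0.00504 and 0.000216.

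Rps9, a protein near the messenger's entry that affects decoding accuracy, had the largest difference of any member in RbpjiΔEC mice. In control mice Rps9 read 12.76, 12.15, 12.72 and 12.29 in the CCR2+ arrays and 13.11, 13.00, 13.18 and 13.05 in the CCR2- arrays. Rps9 read 12.40, 12.45, 12.01 and 12.01 in the CCR2+ and 13.28, 13.38, 13.49 and 13.39 in the CCR2- arrays of RbpjiΔEC mice. The labels did not overlap in either genotype, and the distance between them was wider in RbpjiΔEC mice. The difference was -0.60 ± 0.138 (SE) in control mice and -1.17 ± 0.138 in RbpjiΔEC mice, with limma adjusted p of 0.00205 and 3.04e-06. This probe set was 1 of 3, and the others did not follow it. They gave 0.68 and -0.04 in control mice, and 0.44 and 0.21 in RbpjiΔEC mice. The mean of all 3 differed by 0.02 in control mice and -0.17 in RbpjiΔEC mice. Neither was called (limma adjusted p = 0.929 and 0.251). Rps10, a protein of the small subunit head, read lower on all 6 of its probe sets. The brightest gave -0.70 ± 0.195 in RbpjiΔEC mice (limma adjusted p = 0.00903) and -0.38 ± 0.195 in control mice (adjusted p = 0.134). The RbpjiΔEC call held in 17 of 19 alternatives. It was lost under median centring (-0.38, limma adjusted p = 0.232) and as deposited (-0.04, adjusted p = 0.923).

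Rps20, a protein of the small subunit head, went the other way. In control mice Rps20 read 12.80, 12.89, 12.93 and 12.85 in the CCR2+ arrays and 11.40, 12.72, 12.38 and 12.54 in the CCR2- arrays. Rps20 read 12.91, 12.87, 12.87 and 12.88 in the CCR2+ and 11.73, 12.28, 12.62 and 12.48 in the CCR2- arrays of RbpjiΔEC mice. The CCR2+ arrays were tight, and the CCR2- arrays were spread downward, with replicate 1 the lowest in both genotypes. The difference was 0.61 ± 0.227 (SE) in control mice and 0.60 ± 0.227 in RbpjiΔEC mice, with limma adjusted p of 0.0416 and 0.0451. These calls were fragile. Without CCR2- replicate 1 the difference was 0.32 in control mice and 0.42 in RbpjiΔEC mice (limma adjusted p = 0.129 and 0.157). In each genotype 6 of 8 fits without 1 array lost the call, and those without CCR2- replicate 4 of either genotype, CCR2- Control replicate 2 or CCR2- RbpjiΔEC replicate 3 held it. The mean of all probe sets gave 0.086 and 0.18, neither called, and over 19 alternatives Rps20 was called in 10 in control mice and 12 in RbpjiΔEC mice. A second bright probe set gave 0.94 and 0.67, and 2 dim ones -0.54 and -0.66 in control mice.

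**Figure D4:**
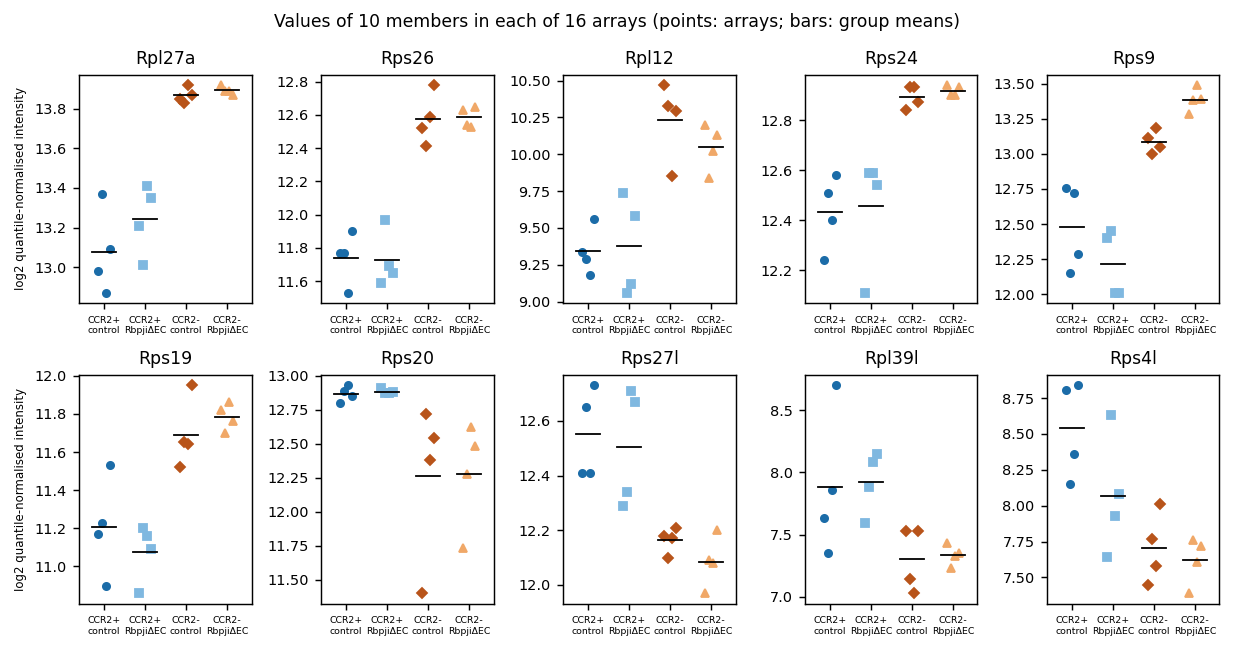
Values of 10 members in every array, in log2 quantile-normalised intensity; points are arrays, marked by group, and bars are means of 4 arrays. Rpl27a, Rps26, Rpl12, Rps24 and Rps9 separate the labels with the CCR2+ arrays low, and Rps20 and Rps27l with the CCR2+ arrays high; with the values as deposited Rps24 turned to 0.13 in control mice.

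Of the 6 paralogs 3 were called in control mice and 2 in RbpjiΔEC mice, all higher in the CCR2+ arrays, or 50% and 33.3%, not far from the 40.8% and 39.1% of all genes called. The estimates were positive for 5 of 6 in each genotype. Rps27l, a p53 target that closely resembles Rps27, was called in both genotypes. In control mice Rps27l read 12.41, 12.65, 12.41 and 12.73 in the CCR2+ arrays and 12.18, 12.10, 12.17 and 12.21 in the CCR2- arrays. Rps27l read 12.29, 12.34, 12.71 and 12.67 in the CCR2+ and 11.97, 12.09, 12.08 and 12.20 in the CCR2- arrays of RbpjiΔEC mice. All CCR2+ arrays lay above all CCR2- arrays. The difference was 0.39 ± 0.107 (SE) in control mice and 0.42 ± 0.107 in RbpjiΔEC mice, with limma adjusted p of 0.0078 and 0.00464, and all 3 of its probe sets were higher (0.39, 0.33 and 1.05 in control mice). Rps27 itself, at a low level, gave -0.13 ± 0.101 and -0.29 ± 0.101 (limma adjusted p = 0.351 and 0.0297), and the RbpjiΔEC call was lost without CCR2+ replicate 1, 3 or 4 or CCR2- replicate 1, 2 or 3 (adjusted p = 0.0503 to 0.0804).

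Rpl39l, a paralog of Rpl39 best known from male germ cells, was dim. In control mice Rpl39l read 7.63, 7.35, 7.86 and 8.70 in the CCR2+ arrays and 7.53, 7.14, 7.03 and 7.53 in the CCR2- arrays. Rpl39l read 7.59, 7.88, 8.08 and 8.15 in the CCR2+ and 7.43, 7.23, 7.33 and 7.35 in the CCR2- arrays of RbpjiΔEC mice. The groups overlapped in control mice, where CCR2+ replicate 4 stood above the rest. The difference was 0.58 ± 0.221 (SE) in control mice and 0.59 ± 0.221 in RbpjiΔEC mice, with limma adjusted p of 0.0459 and 0.0434. Without CCR2+ Control replicate 4 it was 0.31 with a limma adjusted p of 0.155, and the control call was also lost without CCR2+ replicate 3 or CCR2- replicate 2 or 3. In RbpjiΔEC mice it was lost in 7 of 8 fits without 1 array, all but the fit without CCR2+ replicate 1 (limma adjusted p = 0.0598 to 0.115). Over 19 alternatives Rpl39l was called in 12 in control mice and 10 in RbpjiΔEC mice. Rps4l, named as a Rps4x-like gene, was also dim. In control mice Rps4l read 8.81, 8.15, 8.36 and 8.84 in the CCR2+ arrays and 7.45, 7.77, 7.58 and 8.01 in the CCR2- arrays. Rps4l read 7.64, 8.63, 7.93 and 8.08 in the CCR2+ and 7.39, 7.76, 7.61 and 7.72 in the CCR2- arrays of RbpjiΔEC mice. In control mice the groups did not overlap, and in RbpjiΔEC mice they did. The difference was 0.84 ± 0.197 (SE) in control mice and 0.45 ± 0.197 in RbpjiΔEC mice, with limma adjusted p of 0.00248 and 0.0872. Rpl22l1, which shares targets with Rpl22, gave 0.10 ± 0.174 and -0.04 ± 0.174, while Rpl22 gave -0.21 ± 0.0925 and -0.24 ± 0.0925, of which the last passed (limma adjusted p = 0.0467) but held in only 4 of 19 alternatives, and was lost without CCR2+ RbpjiΔEC replicate 1 or 2 or any CCR2- RbpjiΔEC array (adjusted p = 0.0585 to 0.149). Rpl7l1 and Rpl3l, the latter a paralog of striated muscle, passed in neither genotype, with differences of 0.20 and -0.05 in control mice.

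Several well-known members did not pass in either genotype. Rps6, the small subunit protein phosphorylated by S6 kinases downstream of mTOR, gave -0.07 ± 0.113 in control mice and -0.11 ± 0.113 in RbpjiΔEC mice. Rpsa, also known as the laminin receptor, gave 0.10 ± 0.152 and -0.20 ± 0.152. Rps3, which also acts in DNA repair, gave 0.07 ± 0.077 and -0.03 ± 0.077. Rpl7 gave -0.14 and -0.12, and Rps19bp1 -0.13 and -0.14. Probe sets of these genes disagreed in part: a dimmer Rps6 probe set differed by 0.82 and 1.37, and another Rpl7 probe set by 2.48 and 2.72. Over the 24 members with several probe sets, all probe sets had the same sign in 12 in control mice and 9 in RbpjiΔEC mice. Of the members' chosen probe sets 34 carry a suffix that marks shared probes. In 22 it is a, for transcripts of the same gene, and in 2 and 10 it is s and x, for other genes too. Signal from near-identical copies cannot be told apart in the s and x sets, and was not examined in the others.

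Endothelial Rbpj deletion was the study's experimental variable, and no ribosomal protein gene was called for it. In the CCR2+ arrays limma called 0 of 50 members, as it called 0% of all genes. At an unadjusted p under 0.05 it took 1 member, or 2% of them, against 4.56% of all genes, and the groups did not overlap for 0 of 50 members and 3.39% of all genes. The estimates were negative for 33 of 50 members (52.5% of all genes were), and the median was -0.09 beside -0.01 for all genes. In the CCR2- arrays limma also called 0 of 50 members and 0% of all genes, with 1 member at an unadjusted p under 0.05 against 2.14% of all genes. There 36 of 50 estimates were positive, with 50.9% of all genes negative, and the median was 0.03 beside -0.00169 for all genes. With the values as deposited the member median was -0.01 beside -0.16 for all genes. The interaction called 0 of 50 members and 0% of all genes, with 1 member at an unadjusted p under 0.05 against 3.05%. Its estimates were negative for 36 of 50 members (51.6% of all genes), with a median of -0.11 beside -0.01. The median standard error of a member's genotype difference was 0.107, and the median 95% interval, with no adjustment over genes, reached 0.23 log2 units to either side. Estimates as large as -0.47 for Rps4l and 0.41 for Rpl39 did not pass the adjusted threshold.

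Single arrays moved these medians. Without CCR2+ RbpjiΔEC replicate 1, the array with the lowest member median, the median genotype difference in the CCR2+ arrays was -0.02. Without CCR2- Control replicate 1 the median in the CCR2- arrays was -0.03 and that of the interaction -0.04. Beside these, the 18S control averaged 12.65 ± 0.39 (SD, n = 4) in CCR2+ RbpjiΔEC and 13.10 ± 0.37 in CCR2+ Control, a difference that an exact permutation test put at p = 0.114, two-sided, where 0.0286 is the smallest this design allows. The actin 3′ minus 5′ signal, a measure of RNA integrity, was 0.39 ± 0.10 and 0.26 ± 0.07 (exact permutation p = 0.0857). Their part in the member values was not tested.

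For Rps9 the genotype values were apart with the CCR2- label. Its values there (above) were higher in all 4 RbpjiΔEC arrays than in all 4 control arrays, where 1 of 50 members was apart in this way and 1.56% of all genes were; in the CCR2+ arrays they overlapped. The differences were 0.30 ± 0.138 in the CCR2- arrays and -0.26 ± 0.138 in the CCR2+ arrays, with limma adjusted p of 1.00 and 0.966, and the interaction was -0.56 ± 0.195 (unadjusted p = 0.0106, limma adjusted p = 0.999). Its 2 other probe sets gave -0.01 and -0.07 in the CCR2- arrays. Rps4l had the smallest p in the CCR2+ arrays, at -0.47 ± 0.197 (unadjusted p = 0.0288, limma adjusted p = 0.966). Rpl14 and Rpl39, both large subunit proteins, gave -0.32 ± 0.165 and 0.41 ± 0.255 there, with limma adjusted p of 0.966 for both. In the CCR2- arrays Rpl12 gave -0.19 ± 0.16, Rpl41 0.10 ± 0.106, Rps15 0.11 ± 0.145 and Rpl3l -0.12 ± 0.0916. None of these passed.

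**Figure D5:**
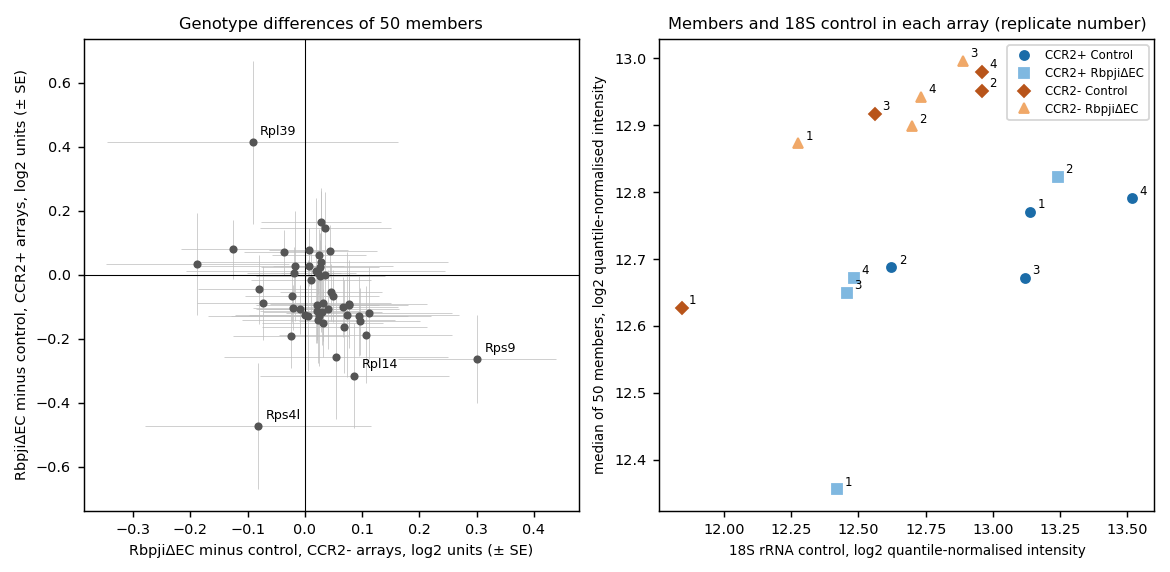
Left, RbpjiΔEC minus control difference of the 50 members in CCR2+ arrays (vertical) against CCR2- arrays (horizontal), in log2 units ± limma standard error; right, median of the 50 members against the 18S control in each of the 16 arrays, with replicate numbers. No member passed in either, Rps9 lies at -0.26 and 0.30, and CCR2+ RbpjiΔEC replicate 1 has the lowest member median (12.36).

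Other genes of ribosome production and translation are given from lists drawn up with this family, whose directions between labels also shift with the scaling. Of 66 measured nucleolar ribosome biogenesis factors, 32 were lower and 1 higher in the CCR2+ arrays of control mice (median -0.41). In RbpjiΔEC mice 39 were lower and 0 higher (median -0.47). Of all genes 21.4% and 21% were called lower. With median centring 13 and 16 of these factors were lower (20.2% and 19.4% of all genes), and as deposited 4 and 1 (9.51% and 6.58%). Among them Dkc1, the pseudouridine synthase of ribosomal RNA, averaged 9.92 with the CCR2+ label against 11.64 in control mice (-1.72 ± 0.092, limma adjusted p = 1.34e-10), and Mybbp1a (-1.24 ± 0.146) and Nop56, a core protein of RNA-methylating particles (-1.04 ± 0.155), were also called. Of 38 regulators 13 were lower and 6 higher in control mice and 13 and 5 in RbpjiΔEC mice. Of all genes 40.8% and 39.1% were called. As deposited 4 regulators were lower and 12 higher, and 3 lower and 15 higher. Of all genes 25.2% and 31.3% were then called higher, and 9.51% and 6.58% lower. Myc gave -1.66 ± 0.26 and -1.98 ± 0.26, and Mtor -0.68 ± 0.0717 and -0.62 ± 0.0717, lower in the CCR2+ arrays in both; as deposited Mtor gave -0.31 and -0.099, neither called (limma adjusted p = 0.151 and 0.685). Ddit4 and Sesn3, which restrain mTOR, gave -2.74 and -2.93 in control mice, and the Myc antagonist Mxi1 0.76. Sesn1, of the same gene family as Sesn3, went the other way, as 1 of the 2 regulators with the largest differences called higher there. In RbpjiΔEC mice Mycn, of the same family as Myc, was called higher in the CCR2+ arrays. Mycn and Mxi1 had the largest differences called higher among the regulators in those mice.

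Of 39 initiation factors measured, 9 were lower and 3 higher in control mice and 10 and 1 in RbpjiΔEC mice. Both shares called were below the 40.8% and 39.1% of all genes. As deposited 0 were lower and 14 and 18 higher, where 25.2% and 31.3% of all genes were higher. Eif4e3, a cap-binding protein, was 2.09 ± 0.151 and 1.95 ± 0.151 higher in the CCR2+ arrays (limma adjusted p = 7.52e-09 and 1.79e-08). Of 15 elongation and termination factors 4 were higher and 2 lower in control mice and 2 and 3 in RbpjiΔEC mice. Both shares were near or below the 40.8% and 39.1% of all genes called. As deposited 9 and 8 were higher and 0 lower, beside the same 25.2% and 31.3% of all genes higher. Eef2k, the kinase that slows elongation, gave 0.83 ± 0.168 and 0.57 ± 0.168. Fau, a ribosomal protein gene whose name falls outside the rule, gave 0.05 ± 0.205 and -0.20 ± 0.205 and did not pass. Of 76 mitochondrial ribosomal protein genes, which serve a separate ribosome, 19 were higher and 6 lower in control mice. In RbpjiΔEC mice 4 were higher and 14 lower. In either direction together, both shares called were below the 40.8% and 39.1% of all genes. The values as deposited gave 36 higher and 1 lower in RbpjiΔEC mice, where 31.3% of all genes were higher. For the genotype in the CCR2+ arrays none of the 76 was called, and 70 of 76 estimates were negative with a median of -0.17, against 33 of 50 and -0.09 for the cytosolic members.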

How the data were processed

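What was deposited for each of the 16 arrays is a linear intensity per probe set (45101 in all). The sources used here do not say how the authors corrected, summarised or normalised them. The deposited intensity columns differ in kind: all values of the 8 CCR2- columns (100%) became whole when multiplied by some divisor up to 22 (tolerance 0.001), but 2.58% to 2.91% of those in the CCR2+ columns. Arrays give no counts, and their number limits the precision.

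Deposited intensities were taken to log2 and quantile-normalised together. A total of 34958 probe sets had 1 symbol, and the brightest by mean stood for each of 18194 genes, with no dim gene removed. For every gene limma 3.58.1 (R 4.3.3) fitted 1 mean per group. Tests were two-sided, p-values were adjusted by Benjamini-Hochberg across the whole table, and genes under 0.05 are those said to be called or to pass. The method was tested on simulated data. Single values had exact permutation tests.

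The 5 comparisons were the labels within each genotype, the genotypes within each label, and the interaction; label and genotype comparisons share arrays. The members and gene lists were chosen with earlier results of these data known. Named by rule were a list of well-known ribosomal proteins and paralogs, the 6 largest called and non-overlapping members in each direction between labels, the 3 smallest p in each direction for the genotype, and the 2 largest called genes of each other list in each direction, of which part is printed. Rps7, members listed only by symbol, and single probe sets were named after their values were seen. Alternatives were the scaling, a filter on dim genes, the mean of all probe sets, eBayes with trend, array weights, the arrays in the fit, the replicate number as a block and each array left out. Centring on the members was added after seeing the data. Promoter sequences are RefSeq's. Protein sequences and a genome were not used here.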

Additional observations from a re-analysis of the deposited data

Results flagged for a closer look

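Of 132 combinations of a named member and a group of 4 arrays, 2 had an array far from the other 3 by Dixon's criterion, fewer than the 1 in 20 that chance gives. Rps24 read 12.11 in CCR2+ RbpjiΔEC replicate 1 against 12.54 to 12.59 in the other arrays of its group. Rpl7l1 read 10.40 in CCR2- RbpjiΔEC replicate 1 against 10.59 to 10.62.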

How the results depend on the processing

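No member was called for the genotype or the interaction under any alternative run for it. Between labels, median centring gave 8 members higher and 4 lower with a median of 0.22 in control mice, and 8 called, 2 higher and 6 lower, with a median of -0.036 in RbpjiΔEC mice; the median genotype difference in the CCR2- arrays was 0.18 and the median interaction -0.25. It turned Rpl10a to 0.070 in control mice and Rpl11 to 0.024 in RbpjiΔEC mice. Centring on the 75th percentile left 2 higher in RbpjiΔEC mice. As deposited, 17 were higher and 1 lower with a median of 0.36 in control mice (25.2% of all genes were higher). In RbpjiΔEC mice the deposited values gave 13 called, 12 higher and 1 lower, with a median of 0.30 (31.3% of all genes higher). These values turned Rps6 (0.51), Rps19 (0.10), Rps24 (0.13) and Rpl10a (0.21) in control mice, and Rplp0 (0.094), Rplp2 (0.026), Rps6 (0.57), Rpl11 (0.36), Rpl38 (0.26), Rpl22 (0.29) and Rpl22l1 (0.62) in RbpjiΔEC mice. The mean of all probe sets turned Rps6 (0.38), Rpl7 (0.78) and Rps9 (0.016) in control mice, and Rps6 (0.63), Rpl7 (0.90), Rpl13a (-0.26) and Rpl22 (0.0062) in RbpjiΔEC mice. Array weights gave 22 called and 19 lower in control mice, and a fit on the 2 groups compared gave 2 higher there. For these fits, and for those without 1 array or with a block, the share of all genes called was not counted. Centring on the members, chosen after seeing the data, gave 7 higher with a median of 0.0050 in control mice (22.8% of all genes higher). In RbpjiΔEC mice it gave 15 called, 11 higher and 4 lower, with a median of 0.10 (37.2% of all genes higher). The median interaction was 0.055. This centring turned Rpl11 (0.033), Rpl22 (0.059) and Rps27 (0.0094) in RbpjiΔEC mice. Beyond the scaling's own construction, the cause was not tested.

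Leaving out 1 array gave 9 to 16 called in control mice, 2 to 4 higher and 7 to 13 lower, with medians of -0.18 to -0.08; 13 were lower without CCR2- Control replicate 1, and 2 were higher without CCR2+ Control replicate 3 or 4 or CCR2- Control replicate 3. In RbpjiΔEC mice it gave 19 to 22 called, 1 to 4 higher and 15 to 20 lower, with medians of -0.23 to -0.15; 1 was higher without CCR2+ replicate 3 or 4 or CCR2- replicate 2, and 2 without CCR2+ replicate 2 or CCR2- replicate 1. The genotype medians were -0.12 to -0.02 under the CCR2+ label and -0.03 to 0.07 under the CCR2- label, and the interaction medians -0.15 to -0.04. Among the named members, Rps27l, Rps4l and Rpl12 in control mice and Rps27l in RbpjiΔEC mice were called under all 19 alternatives. With the replicate number as a block (replicate block), 12 were called in control mice, 4 higher and 8 lower, and 25 in RbpjiΔEC mice, 4 higher and 21 lower. With the block within each genotype alone, 12 were called in control mice and 23 in RbpjiΔEC mice, 4 higher and 19 lower, and the RbpjiΔEC calls of Rpl11, Rpl13a and Rpl22 were lost (limma adjusted p = 0.0506, 0.0949 and 0.077). No member was called for the genotype with the replicate block. The numbers are not known to pair arrays: same-numbered arrays correlated over 0.1 in 2, 2, 1 and 2 of 4 pairs. In each label comparison the same-numbered array correlated best in 3 of 4 pairs. In the genotype comparisons it did so in 0 under the CCR2+ label and 2 under the CCR2- label. A pairing of the labels by animal is therefore possible, and the main fit does not use it. With 4 arrays a group the median unadjusted 95% interval of a difference reached 0.23 log2 units to either side, and members near the level of the bacterial control carry no level of their own.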
